A study of Mus musculus with 6 samples.

Results

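*Hspa1a*, *Hspa1b* and *Jun* are a pair of heat shock genes and a transcription factor gene that cells switch on within minutes to hours of injury. These 3 genes were taken by name from the 3201 genes with values in the deposited RNA-seq table, and they were selected on their TPM values in these same 6 livers, so their levels are described here without a test. The livers came from 3 *Fgf18* f/f mice, which carry loxP sites at *Fgf18* and no deletion, and from 3 *Fgf18* △HSC mice (△HSC livers), in which Cre driven by the GFAP promoter deletes the floxed gene in hepatic stellate cells, which lie outside the sinusoidal endothelium and store vitamin A. The mice had a C57BL/6 background, and both groups underwent 1 h of hepatic ischemia and 6 h of reperfusion. No sham-operated liver is among these samples, and the age of the mice is not given in the sources used here. The labels enter the injury in place of the genotype for the *Fgf18* f/f livers (f/f livers), whose genotype was taken from the methods of the study. The GFAP promoter is also active in astrocytes, and whole liver RNA holds every cell type of the organ, so less RNA per cell and fewer cells of a type cannot be told apart. *Fgf18* itself was not analysed here, and the genotype labels were therefore not checked against the deleted gene.

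Heat shock protein 70 is a chaperone that binds unfolded stretches of other proteins and releases them after ATP hydrolysis, with help from J-domain cochaperones and nucleotide exchange factors. *Hspa1a* and *Hspa1b* encode its stress-inducible forms. Heat shock factor 1 drives them from heat shock elements in their promoters when unfolded protein, heat or oxidants accumulate. *Jun* encodes c-Jun, which pairs with Fos, ATF or other Jun proteins as the transcription factor AP-1. It is phosphorylated by the c-Jun N-terminal kinases (JNKs), and its promoter carries AP-1-like sites. Both systems are known to respond to reperfusion of the liver.

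*Hspa1a* (ENSMUSG00000091971) and *Hspa1b* (ENSMUSG00000090877) lie in the same orientation on chromosome 17 of GRCm38, at 34969190 to 34972156 and 34956436 to 34959238 on the minus strand. Each is a single exon, and 9951 bases separate them. *Jun* (ENSMUSG00000052684) is a single-exon gene on the minus strand of chromosome 4, at 95049034 to 95052222. The 250 bases before each annotated start are printed because they hold letters known as sites of the factors named above, and because those of the heat shock pair are almost the same. They are RefSeq sequences of GRCm38.p6, written 5′ to 3′ along the minus strand, from chr17:34972157-34972406 (*Hspa1a*), chr17:34959239-34959488 (*Hspa1b*) and chr4:95052223-95052472 (*Jun*). Capitals mark the heat shock element letters GAANNTTC and, in *Jun*, the AP-1-like letters TTACCTCA and TGACATCA.
Hspa1a: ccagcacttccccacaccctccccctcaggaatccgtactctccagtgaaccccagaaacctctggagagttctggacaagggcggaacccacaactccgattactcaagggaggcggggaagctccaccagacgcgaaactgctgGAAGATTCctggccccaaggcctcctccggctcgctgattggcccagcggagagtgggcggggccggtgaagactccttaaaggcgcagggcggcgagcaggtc
Hspa1b: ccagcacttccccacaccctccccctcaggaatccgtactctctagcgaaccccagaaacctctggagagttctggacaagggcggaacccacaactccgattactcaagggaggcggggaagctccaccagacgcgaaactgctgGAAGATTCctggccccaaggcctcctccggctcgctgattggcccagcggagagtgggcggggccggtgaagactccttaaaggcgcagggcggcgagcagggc
Jun: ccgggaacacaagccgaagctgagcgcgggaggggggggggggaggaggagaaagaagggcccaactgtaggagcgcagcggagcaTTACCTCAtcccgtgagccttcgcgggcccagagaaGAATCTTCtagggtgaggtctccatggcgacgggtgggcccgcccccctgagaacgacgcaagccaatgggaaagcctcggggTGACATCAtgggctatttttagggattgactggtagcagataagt

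The promoters of *Hspa1a* and *Hspa1b* differed at 3 of 250 bases, C-207T, T-204C and T-2G, with the *Hspa1a* base first and positions counted back from the base before the start. None of the 3 lay in a motif searched for. In both, GAANNTTC began 104 bases before the start and the CCAAT box began 67 bases before it. In *Jun*, GAANNTTC began 128 bases before the start, TTACCTCA 164, TGACATCA 45 and CCAAT 65 bases before it. Motifs were searched on both strands. Of 32817 promoter windows of the same length, 6.69% held GAANNTTC, 7.16% the other arrangement TTCNNGAA, 0.728% TTACCTCA, 2.93% TGACATCA and 33.8% CCAAT. A match is a description of the letters and does not show that a factor was bound.

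In the deposited values all 3 genes were more abundant in every △HSC liver than in any f/f liver. The values, whose unit is not named, are taken here as TPM, reads per length of gene scaled to a fixed total per library. *Hspa1a* stood at 25.5, 25.3 and 38.4 TPM in f/f livers 1 to 3 and at 139, 74.2 and 132 TPM in △HSC livers 1 to 3. *Hspa1b* stood at 59.0, 53.6 and 77.9 TPM in the f/f livers and at 314, 169 and 271 TPM in the △HSC livers. *Jun* stood at 104, 101 and 137 TPM in the f/f livers and at 289, 166 and 294 TPM in the △HSC livers. In each of the 3 genes f/f liver 3 was the highest of its group and △HSC liver 2 the lowest of its own, and by TPM the groups did not overlap. This order, seen after the values were known, was also found in 483 of the 3201 genes (15.1%). Values of all 3 △HSC livers above all 3 f/f livers were found in 62.0% of the listed genes, since the authors had kept only genes that differed in their own comparison of these livers. The same selection limits every adjusted p-value given below, each being adjusted over the listed genes only.

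The gap between the groups was widest for the heat shock pair and narrowest for *Jun*. Mean *Hspa1a* was 29.7 ± 7.48 TPM (SD, n = 3) in the f/f group against 115 ± 35.7 TPM (SD, n = 3) in the △HSC group, a ratio of 3.88. For *Hspa1b* the means were 63.5 ± 12.8 and 251 ± 74.4 TPM (SD, n = 3 livers each), a ratio of 3.96. The heat shock pair therefore moved by nearly the same factor. *Jun* averaged 114 ± 20.1 and 250 ± 72.5 TPM (SD, n = 3 livers each), a ratio of 2.19. On the log2(TPM + 0.1) scale the differences were 1.93, 1.95 and 1.10, where the median over all listed genes was 0.88. The lowest △HSC liver exceeded the highest f/f liver 1.93 times for *Hspa1a*, 2.17 times for *Hspa1b* and 1.21 times for *Jun*. Spread within the △HSC group was wider than this last gap, with the highest liver 1.88, 1.86 and 1.77 times the lowest for the 3 genes. Within the f/f group the same ratio was 1.52, 1.45 and 1.35.

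These differences depended on how the livers were scaled. With each liver divided by its median ratio over the listed genes, the log2 difference was 1.01 for *Hspa1a*, 1.04 for *Hspa1b* and 0.18 for *Jun*. That scaling lowered the median difference of the listed genes by 0.77, because it sets the middle of a list already selected for a difference to be equal between livers. The divisors were 0.694, 0.712 and 0.809 in f/f livers 1 to 3 and 1.28 in △HSC liver 2. They put *Jun* in △HSC liver 2 below every f/f liver, while the groups stayed separate for *Hspa1a* and *Hspa1b*. Leaving out each liver in turn gave 1.76 to 2.22 for *Hspa1a*, 1.77 to 2.22 for *Hspa1b* and 0.95 to 1.37 for *Jun*.

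**Figure D1:**
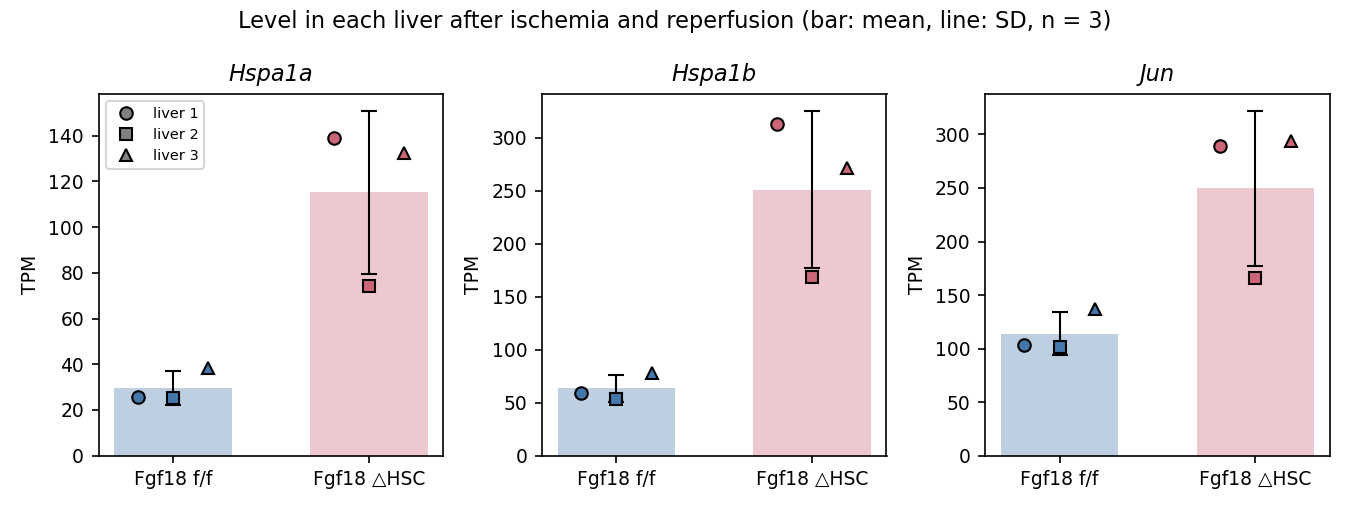
TPM of *Hspa1a*, *Hspa1b* and *Jun* (vertical axes, each from 0) in the 3 f/f and the 3 △HSC livers, with symbols for single livers, bars for means and lines for the SD. Every △HSC liver lies above every f/f liver, and △HSC liver 2 (squares) is the lowest of its group in each panel.

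By mean level the 3 genes were among the most abundant of those listed. In the △HSC livers *Hspa1b* ranked 23rd, *Jun* 25th and *Hspa1a* 65th of the 3201 genes by TPM. Among f/f livers the ranks were 174 for *Hspa1b*, 111 for *Jun* and 287 for *Hspa1a*. Counting error was small beside the spread between livers, since the recovered reads numbered 1672 to 2050 for *Hspa1a*, 3345 to 4428 for *Hspa1b* and 7204 to 8837 for *Jun* in the f/f livers. The △HSC livers held 3364 to 8570, 7228 to 18229 and 8086 to 19105 reads. △HSC liver 2, the lowest of its group in all 3 genes, had 1574331 recovered reads on the listed genes and was the shallowest library of the series by the TPM that a single read is worth.

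*Hspa1a* and *Hspa1b* are near copies, and how reads were divided between them is uncertain. Their coding sequences agreed at 1915 of 1923 aligned bases, an identity of 99.6%. Over the whole transcripts 2526 of 2688 aligned bases agreed (94.0%), so most of the differences lie outside the coding part. Of all windows of 100 bases in the *Hspa1a* coding sequence, 68.3% also occurred in the *Hspa1b* transcript. The read length and the treatment of reads that map to both copies are not given in the sources used here. The sum of the pair was 84.5, 78.9 and 116 TPM in f/f livers 1 to 3 and 453, 243 and 404 TPM in △HSC livers 1 to 3. Its means were 93.2 ± 20.2 and 366 ± 110 TPM (SD, n = 3 livers each), a ratio of 3.93.

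The share of the pair that was assigned to *Hspa1a* was nearly constant over the 6 livers. It was 30.2, 32.1 and 33.0% of the summed TPM in the f/f livers and 30.8, 30.5 and 32.8% in the △HSC livers. The group means, 31.7 ± 1.43% and 31.4 ± 1.23% (SD, n = 3 livers each), differed by less than the spread between livers. By recovered reads the share ran from 31.4% (exact 95% binomial interval 30.3 to 32.5%) in f/f liver 1 to 34.3% (33.1 to 35.5%) in f/f liver 3. These intervals cover counting error only.

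As a multiple of *Hspa1a*, *Jun* was lower in every △HSC liver than in any f/f liver. The ratio of *Jun* to *Hspa1a* TPM was 4.06, 4.01 and 3.58 in the f/f livers and 2.07, 2.24 and 2.22 in the △HSC livers. Its ranges in the groups did not overlap, and unlike the levels it does not depend on the scaling of the livers.

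A gene annotated on the opposite strand of each locus moved with it. *Gm20481* (chromosome 17, 34969912 to 34972136, plus strand) has both of its exons, 564 bases in all, inside the single exon of *Hspa1a*. It stood at 58.9, 56.3 and 82.7 TPM in the f/f livers and at 278, 154 and 264 TPM in the △HSC livers, a log2 difference of 1.79 (SE 0.25, limma adjusted p = 0.000318) that was 0.87 and not called under median-ratio scaling. Its ratio to *Hspa1a* was 2.16 to 2.31 in the f/f livers and 1.99 to 2.07 in the △HSC livers. *Junos* (chromosome 4, 95051534 to 95167318, plus strand) overlaps *Jun* over 232 exon bases. It stood at 6.38, 6.27 and 8.55 TPM in the f/f livers and at 16.4, 10.3 and 18.2 TPM in the △HSC livers. Its log2 difference was 1.05 (SE 0.23, limma adjusted p = 0.00281), and this call was lost in 6 of 12 alternatives, among them without f/f liver 1 or 2 and without △HSC liver 1 or 3. The ratio of *Junos* to *Jun* stayed between 0.0569 and 0.0623 in all 6 livers. The libraries were stranded, but the strand setting of the counting is not given in the sources used here. Without it, reads of a gene and of its antisense partner cannot be told apart. Over the exon bases that no other annotated gene covers, 2403 for *Hspa1a* and 2957 for *Jun*, no separate counts were analysed here.

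**Figure D2:**
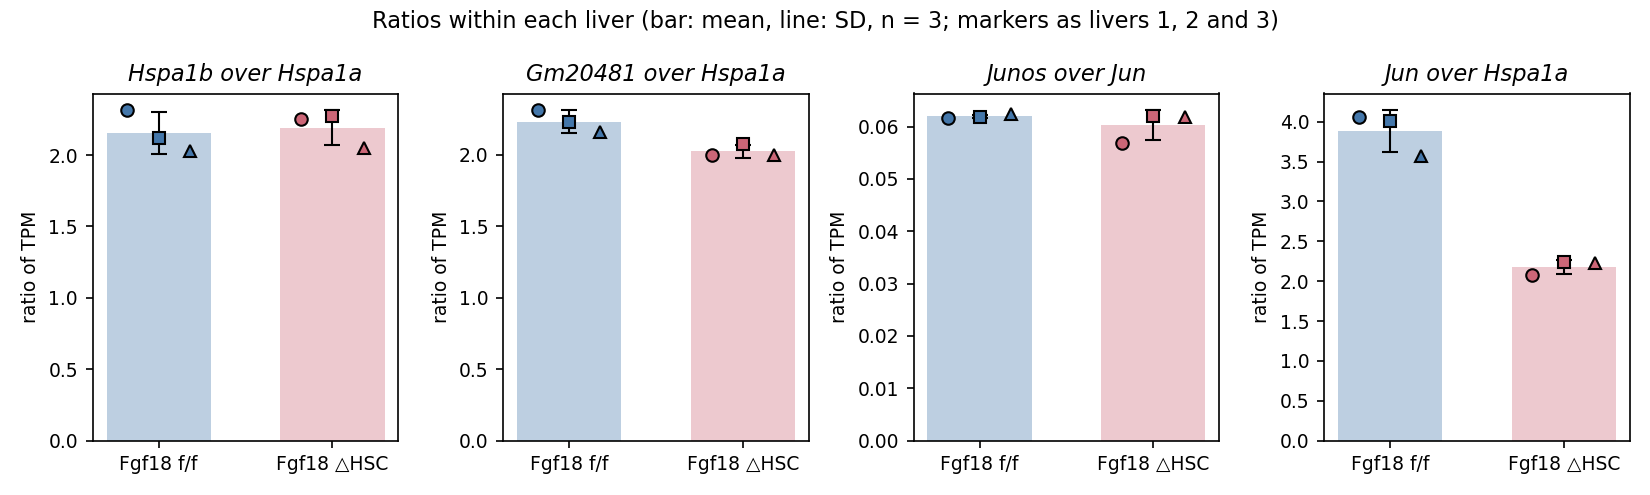
Ratio of TPM within each liver (vertical axes, each from 0) for *Hspa1b* over *Hspa1a*, *Gm20481* over *Hspa1a*, *Junos* over *Jun* and *Jun* over *Hspa1a*, with symbols for single livers, bars for means and lines for the SD (n = 3). The ratio of *Hspa1b* to *Hspa1a* runs from 2.03 to 2.31 over the 6 livers, while that of *Jun* to *Hspa1a* lies at 3.58 or above in the f/f livers and at 2.24 or below in the △HSC livers.

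*Hspa1l*, the third Hsp70 gene of the cluster and known mainly from germ cells of the testis, was higher in the △HSC livers from a low level. Its start lies 546 bases from that of *Hspa1a*, on the opposite strand, so that the genes diverge. It stood at 0.453, 0.200 and 0.404 TPM in the f/f livers, on 11 to 30 reads, and at 3.04, 1.77 and 2.17 TPM in the △HSC livers, on 67 to 156 reads. The log2 difference was 2.44 (SE 0.30, limma adjusted p = 0.000167). No heat shock element of either arrangement was found in the 250 bases before its start, where CCAAT began 57 bases before it. *Gm10501*, annotated antisense to *Hspa1l* and sharing 1778 exon bases with it, had a log2 difference of 2.45 (SE 0.27, limma adjusted p = 0.000105), and its ratio to *Hspa1l* lay between 0.874 and 1.12, so the reads of these genes cannot be told apart either.

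On the other side of the cluster, the processed pseudogene *Gm8696* (385 bases, chromosome 17, 34954328 to 34954712) begins 1723 bases past the end of *Hspa1b* on the same strand. It had 4, 0 and 1 recovered reads in the f/f livers and 61, 36 and 129 in the △HSC livers. Its level in the △HSC livers, 7.64, 6.12 and 16.9 TPM, was highest in liver 3, while *Hspa1b* was highest in liver 1. The noncoding transcript *1110038B12Rik*, which lies beyond it, had a log2 difference of 1.54 (SE 0.19, limma adjusted p = 0.000167), or 0.64 and not called under median-ratio scaling. Of the 26 annotated genes within 100 kb of *Hspa1a* or *Hspa1b*, 13 had values in the table, while around *Jun* it was 1 of 8, *Junos*. A gene had values only if it passed the authors' selection. The share of all annotated genes with values was not computed here, and several of the 13 share exon bases. Whether either neighbourhood departs from that share was not tested.

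**Figure D3:**
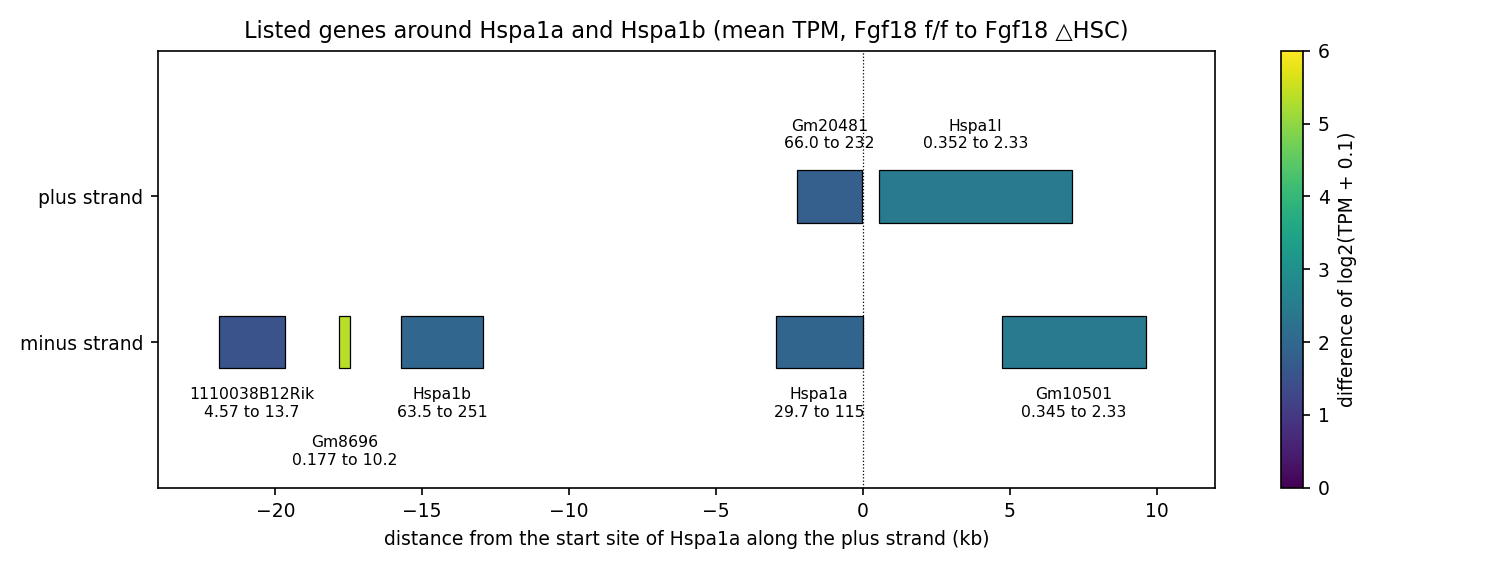
Genes with values around *Hspa1a* and *Hspa1b*, drawn to scale by distance from the start of *Hspa1a* along the plus strand (horizontal axis, kb) and by strand (vertical axis), each box spanning the whole gene and each label giving mean TPM in f/f and then △HSC livers. Colour gives the difference of log2(TPM + 0.1), which was above 0 for all 7 genes drawn and highest for *Gm8696*, on few reads.

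The chaperone genes beyond the pair moved in both directions. A list of 106 heat shock proteins and cochaperones had values for 13 genes besides the members. A gene was called at a limma adjusted p under 0.05 and a log2 difference above 1, which 41.6% of the 3201 genes passed as higher and 30.0% as lower. That is 1333 higher and 961 lower genes, against 312 higher and 1112 lower under median-ratio scaling. By this rule 8 of the 13 were higher and 4 lower in △HSC livers, with a median log2 difference of 1.28 against 0.88 over the table. *Serpinh1*, the collagen chaperone Hsp47, stood at 0.963, 0.772 and 1.11 TPM in the f/f livers and at 3.28, 3.91 and 4.76 TPM in the △HSC livers (log2 difference 1.96, SE 0.20, limma adjusted p = 7.73e-05). *Cryab*, the small heat shock protein alphaB-crystallin, had a log2 difference of 1.71 (SE 0.25, limma adjusted p = 0.000444). For *Dnaja4*, a J-domain cochaperone of Hsp70, it was 1.61 (SE 0.16, limma adjusted p = 7.51e-05), from 1.99, 2.06 and 2.03 to 7.72, 5.31 and 6.38 TPM. Under median-ratio scaling 3 genes of the list were called higher, and *Cryab* (0.86) and *Dnaja4* (0.72) were not among them.

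Among the genes called lower was *Hspa14*, an Hsp70-like protein of the ribosome-associated complex, with 11.2, 11.5 and 8.25 TPM in the f/f livers against 4.19, 4.84 and 3.99 TPM in the △HSC livers (log2 difference -1.22, SE 0.16, limma adjusted p = 0.000268). The J-domain genes *Dnajb4* and *Dnajc12* fell by 1.02 on the log2 scale each (limma adjusted p = 0.000368 and 0.000733). *Hsf4*, a heat shock factor known from the lens, fell by 1.01 (limma adjusted p = 0.00235). These last 3 calls sat at the limit of 1. That of *Dnajb4* was lost without f/f liver 3 or △HSC liver 2, that of *Dnajc12* without △HSC liver 2 or 3, and that of *Hsf4* without f/f liver 1 or 2 or △HSC liver 3. The count of lower genes was 2 in place of 4 without △HSC liver 2 or 3.

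Genes listed here as targets of heat shock factor 1 that had values were mostly higher, in a table with 41.6% called higher and 30.0% lower. Of 30 such genes 7 had values besides the members, of which 6 were called higher and *Dnajb4* lower. The median log2 difference of the 7 was 1.61, against 0.88 over the table. All 7 are also among the 13 chaperone genes above, so these counts repeat calls already given. Under median-ratio scaling 2 of the 7 were called higher, *Hspa1l* (1.64, on few reads) and *Serpinh1* (1.10). No heat shock element of either arrangement was found in the 250 bases before the start of either gene. Without f/f liver 3 or △HSC liver 2 none of the 7 was called lower. The most abundant of the 7, named here after their values were seen, were *Hspb1* and *Hsph1*. *Hsph1* encodes Hsp110, a nucleotide exchange factor that recycles Hsp70, and stood at 20.3, 18.3 and 25.3 TPM in the f/f livers against 63.9, 46.9 and 55.4 TPM in the △HSC livers. *Hspb1*, the small chaperone Hsp25, stood at 98.3, 88.4 and 74.9 TPM and at 228, 155 and 200 TPM. Like the members, both were lowest in liver 2 among the △HSC livers. In f/f liver 3 *Hsph1* was the highest of its group, as the members were, while *Hspb1* was the lowest. Their log2 differences, 1.38 (SE 0.16, limma adjusted p = 0.000146) and 1.15 (SE 0.17, limma adjusted p = 0.000401), were smaller than those of *Hspa1a* and *Hspa1b*. Promoter sequences were found for 10 of the 13 listed chaperone genes, and 5 of these (*Dnaja4*, *Dnajb4*, *Dnajc27*, *Hspb1* and *Hsph1*) held a heat shock element of either arrangement in at least 1 of their windows, as did 14.5% of the 26994 genes with promoter windows. *Dnajb4* was lower in the △HSC livers and *Dnajc27* was not called.

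Few genes of the endoplasmic reticulum stress response had values. Of a list of 30, values were present for 4, of which *Sdf2l1*, *Sesn2* and *Trib3* were called higher and none lower. The shares over the whole table were 41.6% higher and 30.0% lower. *Sdf2l1*, part of a chaperone complex of the endoplasmic reticulum, stood at 8.43, 8.26 and 7.07 TPM in the f/f livers and at 24.0, 20.1 and 19.0 TPM in the △HSC livers (log2 difference 1.39, SE 0.14, limma adjusted p = 6.68e-05). The log2 differences of *Sesn2*, a stress-induced regulator of the mTORC1 kinase complex, and *Trib3*, a pseudokinase induced by ATF4, were 1.23 and 1.17 (limma adjusted p = 0.000459 and 0.000359). The other gene, *Chac1*, which encodes a glutathione-degrading enzyme, had a difference of -0.96 and was called lower without f/f liver 3 or △HSC liver 2. None of the 3 higher calls remained under median-ratio scaling.

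*Jun* differed in direction from most AP-1 subunits with values. Of 19 other subunit genes 5 had values, of which 1, *Fosl1*, was called higher and 4 were called lower, with a median log2 difference of -1.14. *Fosl1*, which encodes the Jun partner Fra-1, stood at 2.47, 2.60 and 2.54 TPM in the f/f livers and at 11.9, 11.8 and 16.6 TPM in the △HSC livers (log2 difference 2.34, SE 0.16, limma adjusted p = 1.81e-05). Its livers were separated by a factor of 4.55 between the lowest △HSC and the highest f/f value, more than for *Jun*. *Fosb*, another Jun partner, went from 12.6, 10.7 and 6.05 TPM to 1.68, 0.797 and 1.51 TPM (log2 difference -2.78, SE 0.34, limma adjusted p = 0.000161). *Jund*, the paralog of *Jun* with the highest level in the list, went from 337, 285 and 247 TPM to 155, 125 and 146 TPM (log2 difference -1.02, SE 0.15, limma adjusted p = 0.000361).

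By level, *Jund* was above *Jun* in every f/f liver and below it in every △HSC liver. *Batf*, which encodes a partner of Jun proteins in lymphocytes, fell by 1.23 (limma adjusted p = 0.0187). The call of *Jund* was lost without f/f liver 1 or △HSC liver 2, and that of *Batf* also without △HSC liver 1. The number of lower subunits was 2 in place of 4 without f/f liver 1 or △HSC liver 2.

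The wider set of immediate early genes, those induced without new protein synthesis, was mostly lower among genes with values. This was in a table with 41.6% of genes called higher and 30.0% lower. Of 58 genes besides *Jun*, 23 had values, of which 5 were called higher and 15 lower (median log2 difference -1.14, against 0.88 over the table). *Ctgf*, a matricellular growth factor gene, had the highest log2 difference, 3.34 (SE 0.22, limma adjusted p = 1.76e-05), from 0.379, 0.612 and 0.737 TPM to 6.71, 6.06 and 6.94 TPM. *Arc*, known from synapses, stood at 2.86 (SE 0.23, limma adjusted p = 3.37e-05), *Fosl1* at 2.34 as above, and *Egr2*, a zinc finger factor, at 1.53 (SE 0.30, limma adjusted p = 0.00161), which under median-ratio scaling was 0.71 and not called. *Gadd45a*, a growth arrest gene, went the other way, from 103, 95.4 and 79.9 TPM to 22.2, 16.2 and 20.7 TPM (log2 difference -2.24, SE 0.15, limma adjusted p = 1.96e-05). *Nfkbiz*, a regulator of NF-kB, fell by 2.14 (limma adjusted p = 2.26e-05) and *Socs3*, an inhibitor of cytokine signaling, by 1.75 (limma adjusted p = 3.21e-05). These 3 stayed called lower in all 12 alternatives.

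**Figure D4:**
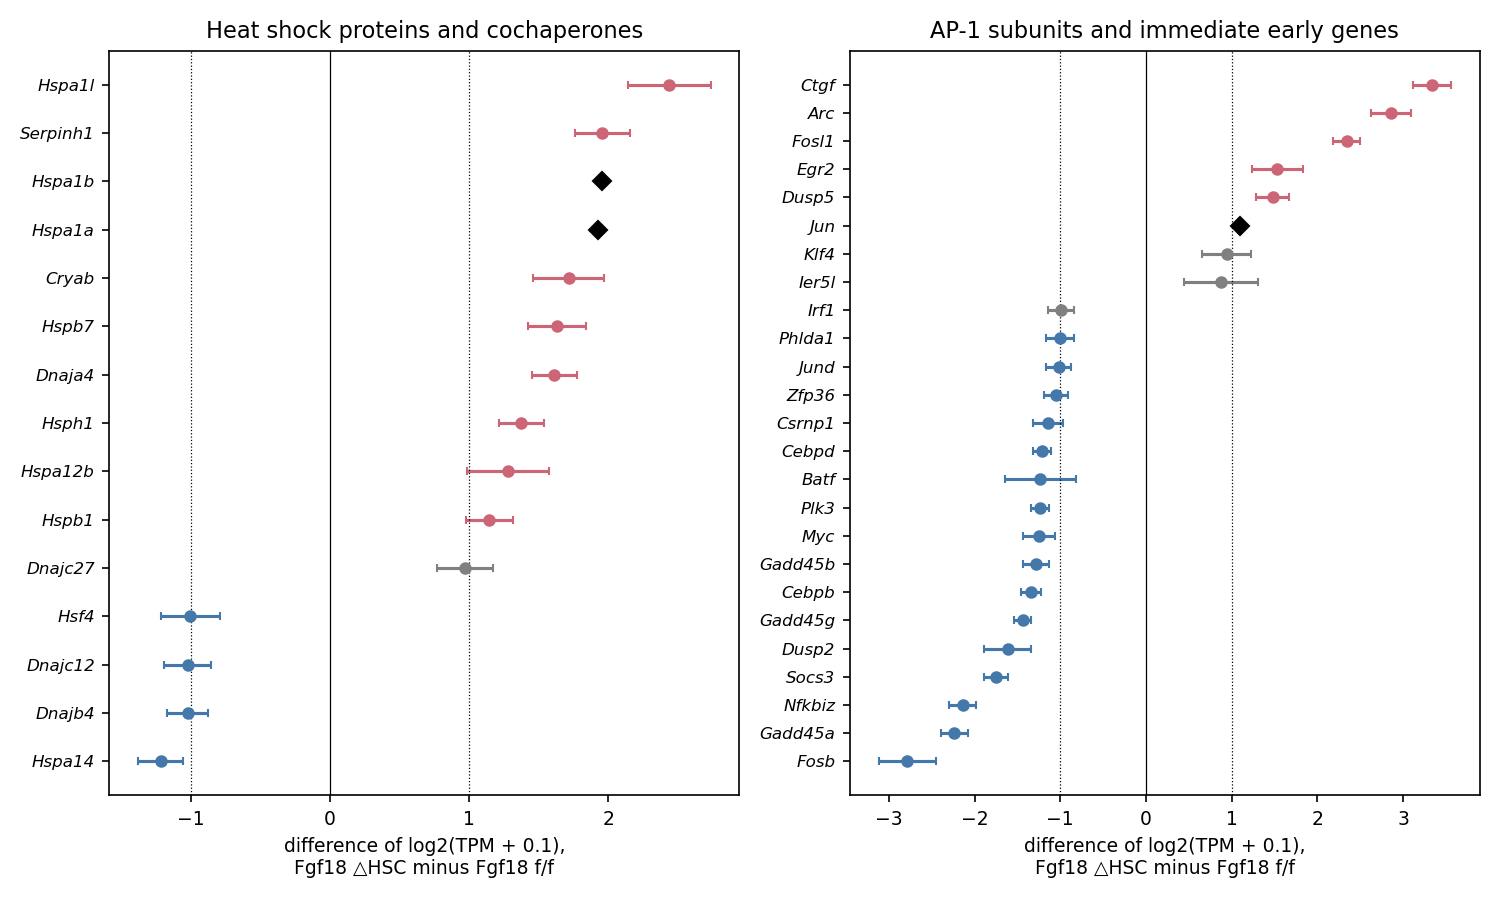
Difference of log2(TPM + 0.1), △HSC minus f/f (horizontal axes), for heat shock proteins and cochaperones (left) and AP-1 subunits and immediate early genes (right) with values, 1 lower gene of the right panel being left out. Black diamonds are *Hspa1a*, *Hspa1b* and *Jun*, shown without a test, and circles are other genes with the limma SE, red where called higher, blue where called lower and grey where not called. *Jun*, at 1.10, lies on the side of 5 genes called higher, while 16 genes drawn in the right panel were called lower. The shares over all listed genes were 41.6% higher and 30.0% lower.

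Upstream of c-Jun, 7 of 43 genes of the JNK cascade had values, of which 2 were called higher and 4 lower (median log2 difference -1.29). All listed genes together had 41.6% called higher and 30.0% lower. *Dusp4*, a phosphatase of MAP kinases, was higher by 1.08 (SE 0.13, limma adjusted p = 0.000181) and *Tab1*, an adaptor of the kinase TAK1, by 1.02 (SE 0.18, limma adjusted p = 0.00104). Neither was called under median-ratio scaling, and *Tab1* was lost without f/f liver 1 or △HSC liver 2. *Map3k13*, an upstream kinase, went from 4.79, 5.22 and 4.28 TPM to 1.70, 0.937 and 1.63 TPM (log2 difference -1.71, SE 0.23, limma adjusted p = 0.000272). The other 3 lower genes were *Gadd45a*, *Gadd45b* (-1.29) and *Gadd45g* (-1.44), whose proteins bind the kinase MEKK4.

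Downstream, 14 of 34 known AP-1 targets had values, with 7 called higher and 6 lower, where 41.6% and 30.0% of all listed genes were, and a median log2 difference of 0.87 against 0.88. The higher genes numbered 3 under median-ratio scaling, with genes averaging 1 TPM or more, or with a pseudocount of 1, while 5 or 6 were called lower. *Spp1*, which encodes osteopontin, went from 12.3, 11.5 and 16.1 TPM to 50.5, 43.4 and 65.0 TPM (log2 difference 1.98, SE 0.18, limma adjusted p = 5.71e-05). *Hmga1*, a chromatin protein gene, was higher by 1.08 (SE 0.15, limma adjusted p = 0.000334), a call lost under median-ratio scaling and without △HSC liver 3. In the other direction, the neutrophil chemokine genes *Cxcl1* and *Cxcl2* fell by 2.33 and 2.12, and the cytokine gene *Il6* by 2.20 (limma adjusted p = 1.28e-05, 0.000276 and 0.00098).

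Likeness to the members was measured over the 6 livers as the root mean square difference of centred log2(TPM + 0.1), among the 1668 genes whose mean reached 1 TPM in one group or the other. *Hspa1b* was the nearest gene to *Hspa1a* and the reverse, at 0.0738, followed by *Gm20481* at 0.0774 for *Hspa1a* and 0.0963 for *Hspa1b*. Other near genes were *Anxa3*, *Spp1* and *Sox4* for *Hspa1a*, at 0.209 to 0.217, and *Anxa3* and *Pdgfrb* for *Hspa1b*, at 0.202 and 0.210. The nearest to *Jun* was *Junos* at 0.0485, then *Dapk2*, *Bicc1*, *Tmem173* and *AC134329.1* at 0.107 to 0.151. *Jun* stood 163rd from *Hspa1a*, at 0.420. The livers of the compared genes are the same 6 libraries. *Hspa1a* shares most of its coding sequence with *Hspa1b* and exon bases with *Gm20481*, and *Jun* shares exon bases with *Junos*. The part of shared reads in the nearness of these genes was not tested.

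Markers of several cell types also had higher sums of TPM in the △HSC livers, in a table where 41.6% of genes were called higher. Of 12 Kupffer cell and macrophage markers 5 had values and 4 were called higher, and their summed level was 10.4 to 13.3 TPM in f/f livers and 27.6 to 39.6 TPM in △HSC livers. Among 12 stellate cell markers 7 had values and 5 were called higher, with sums of 2.59 to 3.83 and 8.82 to 13.5 TPM. All 4 sinusoidal endothelial markers with values, of 10, were called higher, with sums of 18.9 to 20.7 and 41.4 to 58.9 TPM. The 4 erythroid genes with values, of 6, all globins, were called higher as well and summed to 70.9 to 116 and 396 to 539 TPM. For cholangiocytes 5 of 6 had values, with 2 called higher and 1 lower, and sums of 28.1 to 30.5 and 50.2 to 76.8 TPM. *Spp1* is one of these markers and made up most of each △HSC sum, with 43.4 to 65.0 TPM against 11.5 to 16.1 TPM per f/f liver. By these ranges, the remaining cholangiocyte markers together were lower in △HSC liver 2 than in any f/f liver. For the other △HSC livers the ranges do not decide this. Neutrophil markers, 6 of 12 with values, were split into 3 higher and 3 lower, and their sums overlapped at 20.8 to 23.8 and 19.0 to 47.0 TPM. Of 6 B and plasma cell markers 1 had values, *Jchain*, and it was called higher. No marker with values was listed at 0 in any liver. None of the 10 hepatocyte or the 7 T and NK cell markers had values, so the tissue label was not checked against hepatocyte genes here. Under median-ratio scaling the markers called higher numbered 0 for Kupffer cells and macrophages, 3 for stellate cells, 0 for sinusoidal endothelium, 4 for erythroid cells, 1 for cholangiocytes and 1 for neutrophils. The part of these cell types in the levels of *Hspa1a*, *Hspa1b* and *Jun* was not tested.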

How the data were processed

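RNA-seq was performed on whole livers of 3 *Fgf18* f/f and 3 *Fgf18* △HSC mice, grouped from their labels. Per the labels and methods, the authors isolated RNA with TRIzol, made stranded mRNA libraries, trimmed reads with cutadapt 2.5, aligned them to GRCm38 (mm10) with HISAT2 2.1.0, counted them with featureCounts 1.6.3 and ran DESeq2. The table deposited by the authors lists 3201 genes selected on that comparison, each with a value per liver that is taken here as TPM. The table does not name the unit, and RPKM or FPKM would give the same pattern of whole reads. The deposited log2 fold change, p-value and adjusted p-value of the authors were not used.

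Gene positions came from GENCODE on GRCm38 (3196 genes matched) and promoters from RefSeq GRCm38.p6. A TPM value times exon length gave whole reads within 0.02 for 92.2 to 92.6% of values under 5000 reads, and 2928 genes were whole in all 6 livers. Recovered reads on listed genes numbered 3148785 to 4852001 in *Fgf18* f/f livers and 1574331 to 2094293 in *Fgf18* △HSC livers. One read on 1 kb was worth 0.0374 to 0.0555 and 0.0482 to 0.0655 TPM. Library totals are not given in the sources used here.

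Limma 3.58.1 under R 4.3.3 (lmFit, then eBayes with a trend) compared log2(TPM + 0.1), which understates changes of low genes. It covered all 3201 listed genes without a further filter, with Benjamini-Hochberg adjustment over these genes only. The authors had selected these genes on the same contrast, so small p-values were to be foreseen and are not independent evidence of a difference. Log2 differences are *Fgf18* △HSC minus *Fgf18* f/f. The fits were tested on simulated data. Whether the livers of a group were operated on separate days is not stated. The p-values set the group difference of a gene against the spread between livers of the same group. Alternatives were other pseudocounts (1 and 0.01), a filter at an average of 1 TPM, median-ratio scaling, the replicate number as a block, each liver left out, and limma-voom on recovered reads.

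The members and gene lists were chosen with earlier results of these data known. Named genes were the members, up to 4 genes called higher and 4 called lower per list whose average reached 1 TPM in a group, the genes within 100 kb of a member, and the 5 genes most like each member. *Chac1*, *Dnajc27* and *Jchain* were named after their values were seen, to complete small counts. *Hsf1* and *Hmox1* were not analysed here. Some genes that the rule would name are not reported here.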

Additional observations from a re-analysis of the deposited data

How the results depend on the processing

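With each liver divided by its median ratio over the listed genes, the log2 differences of *Hspa1a*, *Hspa1b* and *Jun* were 1.01, 1.04 and 0.18. The genes called higher then numbered 312 over the table, 3 for the heat shock list, 2 for heat shock factor 1 targets, 0 for endoplasmic reticulum stress (with 1 lower), 3 for immediate early genes, 0 for the JNK cascade and 3 for AP-1 targets. Keeping only genes that average 1 TPM or more gave 522 higher over the table, 1 for the JNK cascade and 3 for AP-1 targets. This filter tests fewer genes. A pseudocount of 1, which shrinks low genes, gave 266 higher and 566 lower over the table, 1 lower for the heat shock list, 0 lower for heat shock factor 1 targets, 1 higher for endoplasmic reticulum stress, 0 higher for the JNK cascade and 3 higher for AP-1 targets. Limma-voom on recovered reads called 0 AP-1 subunits higher, since *Fosl1* was not among the genes with whole reads. By recovered reads the mean share of *Hspa1a* in △HSC livers was 32.6%.

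Leaving out each liver in turn gave 1.76 to 2.22 for *Hspa1a*, 1.77 to 2.22 for *Hspa1b* and 0.95 to 1.37 for *Jun*. The calls were then 2 to 4 lower in the heat shock list, 0 to 1 lower for heat shock factor 1 targets, 0 to 1 lower for endoplasmic reticulum stress, 2 to 4 lower for AP-1 subunits and 1 to 2 higher for the JNK cascade.

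The replicate numbers were not taken to pair the livers. Deviations of same-numbered livers correlated at 0.0574, 0.00597 and 0.0307 over genes, and those of differently numbered livers at -0.0922 to 0.0580. With 3 livers per group, in a table selected on the same contrast, these values cannot decide whether livers shared a day of surgery or library preparation. With the replicate block 1337 genes were called higher and 963 lower over the table, and the member differences were the same as without it, 1.93, 1.95 and 1.10. The counts of the 7 lists were also the same as without the block.

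Depth limits the low genes, *Hspa1l* and *Gm8696* among them, more than the members. The selection of the table on the same contrast limits every count and every adjusted p-value.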

Other observations

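Complement genes near the heat shock pair were lower in the △HSC livers. *C2*, a component of the classical pathway of complement, stood at 6.42, 6.45 and 7.17 TPM in the f/f livers and at 2.71, 2.96 and 2.27 TPM in the △HSC livers (log2 difference -1.31, SE 0.14, limma adjusted p = 0.000106). *Cfb*, factor B of the alternative pathway, had a log2 difference of -1.27 (SE 0.20, limma adjusted p = 0.000569), and its call was lost with a pseudocount of 1. *C2* and *Cfb* share exon bases with a further annotated gene of the same strand, and how reads there were assigned is not given in the sources used here. *Zbtb12* overlaps *C2* on the opposite strand and had a log2 difference of -1.02 (limma adjusted p = 0.00877) that was lost in 4 of 11 alternatives, among them without f/f liver 2 or △HSC liver 2 or 3.

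On the far side of the pair, *Clic1*, a chloride intracellular channel gene, averaged 4.31 ± 0.719 TPM (SD, n = 3) in the f/f livers against 13.1 ± 1.68 TPM (SD, n = 3) in the △HSC livers (log2 difference 1.59, SE 0.16, limma adjusted p = 7.77e-05), or 0.69 and not called under median-ratio scaling. *Vwa7*, *Sapcd1*, *Ddah2* and *Mpig6b* were called higher on 31 reads or fewer in every liver, and none of these calls remained under median-ratio scaling or with a pseudocount of 1. *Ddah2* was also lost without f/f liver 3 or △HSC liver 2 or 3. Of the 13 genes with values within 100 kb of the pair, besides the pair itself, 10 were called higher and 3 lower, in a table with 41.6% called higher and 30.0% lower. Under median-ratio scaling it was 3 higher and 3 lower.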
